A study of Mus musculus with 6 samples.

Results

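Neuropeptide Y and its receptors were followed here in the ribosome-bound mRNA of *Kiss1* cells of the medial amygdala (MeA) of female mice. The genes were chosen by symbol, *Npy* for the peptide and *Npy1r*, *Npy2r* and *Npy5r* for the Y1, Y2 and Y5 receptors. All 4 were present among the 13886 genes with values. Of the 8 genes of the wider family that were looked for, *Pyy*, *Ppy*, *Npy4r* and *Npy6r* were not listed. These are annotated as protein-coding, and the study's methods keep protein-coding genes above a minimum mean level in at least 1 treatment group. By that rule the unlisted genes would lie below the minimum in both groups, and their exact levels are not known from these data. The paper names *Npy4r* among the receptors it found absent.

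The females were KissCre+/Rpl22HA+/+ mice, in which Cre made under the *Kiss1* gene adds an HA tag to the ribosomal protein Rpl22, so that an antibody to HA pulls down ribosomes and the mRNA on them. Every mouse was ovariectomized (OVX) at 8 weeks of age, received estradiol (E2) in a Silastic capsule for the first 4 days so that Cre would be made, and then spent 7 days without it. The E2 group next carried a second capsule for 5 days, while the OVX group carried none over the same 5 days. Each group had 3 libraries, and each library was made from the micropunched MeA of 4 mice pooled. The OVX females had therefore also been exposed to E2, and the tag marks cells in which Cre had been active at any time and not only at collection. Neither Input RNA nor Cre-negative libraries were analysed here, so what the precipitates hold from untagged cells was not measured. Nothing in the labels says how mice were allotted to pools, and the p-values measure the spread between these pools.

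Neuropeptide Y is a short amidated peptide that neurons store in dense-core vesicles and release with other transmitters. It acts on a family of receptors that couple to Gi/o proteins, which lower cyclic AMP, open inwardly rectifying potassium channels and close presynaptic calcium channels. The Y1 receptor is best known on the receiving neuron, and the Y2 receptor is best known on axon endings, where it curbs release of neuropeptide Y itself and of GABA or glutamate. The Y5 receptor is often found with Y1, and the peptide is known in the amygdala for lowering anxiety and in the hypothalamus for driving feeding.

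Counts rebuilt from the deposited values summed to between 28280115.7 and 34259299.7 per library. *Kiss1*, which defines the cells, is listed as 2 gene models. The first had a mean log2 CPM (CPM, a gene's counts scaled to a common library total) of 1.75 without and 3.66 with E2. The second had -2.12 ± 3.22 (SD, n = 3) and 2.93 ± 0.27 (SD, n = 3). Its values in OVX replicates 1, 2 and 3 were -5.82, -0.65 and 0.10, so its OVX mean rests largely on replicate 1. The first passed the test described below (adjusted p = 0.00475 with limma) and the second did not (adjusted p = 0.0942 with limma). All 15 genes looked for as MeA and *Kiss1* neuron genes were listed, and beside *Kiss1* the test was passed by *Gal*, which was higher with E2 (difference 2.04), and by the estrogen receptor gene *Esr1*, which was lower (difference -0.70). The 5 general neuron genes summed to between 5071 and 5232 CPM in OVX and between 5124 and 5459 CPM in E2 libraries. Genes of other cells were present too, and no marker list was empty. The 5 oligodendrocyte genes summed to between 1432 and 2015 CPM in OVX and between 1575 and 2220 CPM in E2 libraries, the 5 astrocyte genes to between 509 and 681 CPM and between 598 and 790 CPM, and the 5 microglia genes to between 92.6 and 116 CPM and between 90.1 and 109 CPM. The 5 endothelial genes summed to between 72.2 and 156 CPM and between 93.4 and 124 CPM. The 8 genes of forebrain excitatory neurons summed to 1218, 1025 and 940 CPM in OVX replicates 1, 2 and 3 and to 783, 724 and 935 CPM in E2 replicates 1, 2 and 3. Each of these 8 genes had a lower mean with E2, while a higher mean was found for 5 of 5 astrocyte, 5 of 5 endothelial, 4 of 5 oligodendrocyte, 2 of 5 microglia and 3 of 5 general neuron genes, against 51.1% of all genes. In these lists 0 genes passed the test. An unadjusted p under 0.05 with limma was found for 6 of the 8 forebrain excitatory genes, against 8.56% of all genes. It was found for 1 astrocyte, 1 oligodendrocyte and 0 microglia, endothelial and general neuron genes. The median difference of the 8 excitatory genes was -0.40, and that of all genes was 0.0034. The part of these cells in any difference below was not tested. In such pooled samples, fewer cells of a type and less RNA per cell cannot be told apart.

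Of the 4 genes, *Npy2r* rose with E2 and the other 3 did not pass the test. *Npy2r* was 1.62-fold higher (95% interval 1.43 to 1.83), and each E2 library stood above each OVX library. *Npy*, *Npy1r* and *Npy5r* overlapped between the groups, with folds of 1.06, 0.951 and 0.867. Among all genes, 0.288% passed the test in either direction and 0.23% passed it as higher and 0.0576% as lower with E2.

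**Figure D1:**
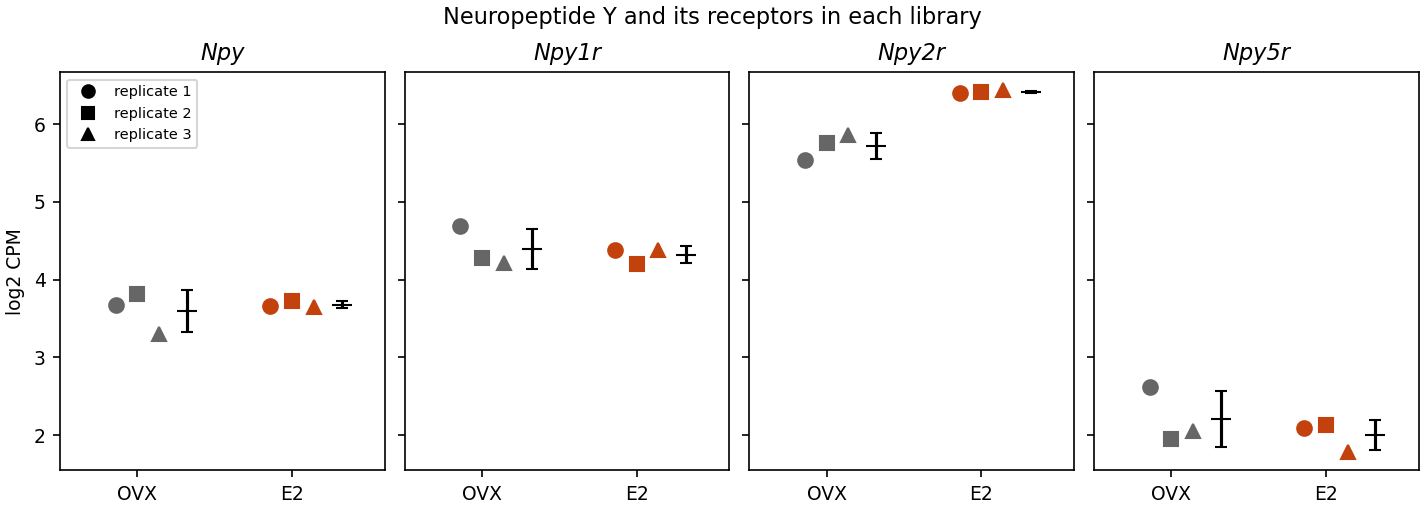
The plot gives log2 CPM (vertical axis) of *Npy*, *Npy1r*, *Npy2r* and *Npy5r* in the 3 OVX (grey) and 3 E2 (orange) libraries, with a marker shape for each replicate number and a bar for the mean and SD. The E2 libraries of *Npy2r* lie between 6.400 and 6.43 and above all its OVX libraries, while for the other 3 genes the groups overlap.

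The stretch of DNA just upstream of the start is shown for *Npy2r*, the gene that rose, and for the peptide gene *Npy*, because these are the windows in which a match to a known binding motif would be looked for first. Both come from RefSeq on GRCm38.p6, are written 5′ to 3′ on the strand of the gene and hold the 250 bases before the start, at chr3:82548086-82548335 on the minus strand for *Npy2r* and chr6:49822460-49822709 on the plus strand for *Npy*. Capitals mark matches to the Sp1 letters GGGCGG.
Npy2r: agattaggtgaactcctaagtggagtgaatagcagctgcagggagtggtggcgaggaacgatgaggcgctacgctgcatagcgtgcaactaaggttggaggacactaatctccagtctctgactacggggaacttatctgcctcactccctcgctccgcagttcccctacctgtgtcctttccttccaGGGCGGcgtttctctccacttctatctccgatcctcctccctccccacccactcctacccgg
Npy: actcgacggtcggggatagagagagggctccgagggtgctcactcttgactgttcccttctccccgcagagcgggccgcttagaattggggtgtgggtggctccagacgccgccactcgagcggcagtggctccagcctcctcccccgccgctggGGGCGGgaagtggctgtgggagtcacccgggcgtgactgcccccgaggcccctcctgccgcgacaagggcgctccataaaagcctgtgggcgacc

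The windows searched for all 4 genes ran from 250 bases before to 50 after the start, and both strands were searched. The half-site of the estrogen response element, GGTCA, had 0 matches in each of the 4 windows, and it is found in 40.5% of the 32817 windows of this length. The whole palindromic element, which holds the half-site on both strands, is found in 0.0701% of windows and had 0 matches in the 4. The Sp1 letters matched once in *Npy2r*, at position -62 counted from the start, and once in *Npy*, at -95, and are found in 35.6% of windows. The AP-1 letters TGANTCA matched once in *Npy1r*, at position -231, and in none of the other 3, and are found in 7.81% of windows. These matches describe the letters of the windows and say nothing of binding.

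The ligand gene *Npy* (ENSMUSG00000029819) lies on chromosome 6 from 49822710 to 49829507 on the plus strand (GRCm38), with 1 annotated transcript of 566 nt and no overlapping gene. Its log2 CPM was 3.67, 3.82 and 3.29 in OVX replicates 1, 2 and 3 and 3.66, 3.73 and 3.64 in E2 replicates 1, 2 and 3. The rebuilt counts behind these values ran from 275 to 482. The E2 libraries lay close together and inside the range of the OVX libraries, of which replicate 3 was the lowest. The mean was 3.60 ± 0.27 (SD, n = 3) without E2 and 3.67 ± 0.045 (SD, n = 3) with E2. The difference of 0.08 on the log2 scale (SE 0.15, 95% interval -0.25 to 0.41) had an adjusted p of 0.943 with limma, the linear model fitted across all genes. Without OVX replicate 3 the difference was -0.07, so its direction rests on that library. The nearest listed neighbour, *Mpp6*, 280733 bases away, had a difference of 0.35 (adjusted p = 0.444 with limma).

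*Npy2r* (ENSMUSG00000028004) encodes the Y2 receptor and lies on chromosome 3 from 82538383 to 82548084 on the minus strand, with 4 annotated transcripts and no overlapping gene. Its log2 CPM was 5.54, 5.75 and 5.86 in OVX replicates 1, 2 and 3, which is 46.4, 54.0 and 58.2 CPM. In E2 replicates 1, 2 and 3 it was 6.400, 6.41 and 6.43, or 84.4, 84.8 and 86.4 CPM. The groups were separate, with a gap between the highest OVX and the lowest E2 library that was wider than the whole spread of either group. Rebuilt counts were 1313, 1844 and 1633 in OVX and 2555, 2883 and 2800 in E2 libraries, the highest of the 4 genes in every library.

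The mean of *Npy2r* was 5.72 ± 0.17 (SD, n = 3) without E2 and 6.41 ± 0.018 (SD, n = 3) with E2. The difference was 0.70 (SE 0.08, 95% interval 0.52 to 0.87), with an adjusted p of 0.00133 with limma over all 13886 genes. By p it ranked 8 of these genes and by the size of its difference 300, so that it stood out more by the small spread than by the size of the difference. Groups that did not overlap, with E2 above, were found for 6.85% of all genes, and with E2 below for 6.82%. An exact two-sided permutation test of the 6 libraries gave p = 0.1, the smallest that 3 against 3 libraries allow.

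With 1 library left out in turn, the difference of *Npy2r* ran from 0.60 to 0.77, and the adjusted p with limma reached 0.00868 at most. The limma fit with neither the mean-variance trend nor weights ended the call, with the same difference and an adjusted p of 0.279, and in that fit 0 genes passed over the whole table and 1017 had an unadjusted p under 0.05. *Map9*, the listed gene next to *Npy2r* on the chromosome, had a difference of 0.0048 (adjusted p = 0.992 with limma).

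*Npy1r* (ENSMUSG00000036437), the gene of the Y1 receptor, lies on chromosome 8 from 66697192 to 66706792 on the plus strand. *Npy5r* (ENSMUSG00000044014), the gene of the Y5 receptor, lies next to it from 66679965 to 66688128 on the minus strand. The genes are transcribed away from each other with 9063 bases between them and share no exonic bases, so that reads of these unstranded libraries could be told apart by position. *Naf1*, the listed gene on the other side of *Npy1r*, had a difference of 0.05 (adjusted p = 0.954 with limma).

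The log2 CPM of *Npy1r* was 4.69, 4.28 and 4.22 in OVX replicates 1, 2 and 3 and 4.38, 4.20 and 4.38 in E2 replicates 1, 2 and 3. OVX replicate 1 was the highest and the other 5 libraries lay within the same narrow range. The mean was 4.39 ± 0.26 (SD, n = 3) without E2 and 4.32 ± 0.11 (SD, n = 3) with E2, with a difference of -0.07 (SE 0.13, 95% interval -0.36 to 0.21) and an adjusted p of 0.936 with limma. Without OVX replicate 1 the difference was 0.07, so its direction rests on that library. The interval leaves room for a level between 0.782 and 1.16 times that of OVX females.

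*Npy5r* was the lowest of the 4 genes in every library. Its log2 CPM was 2.63, 1.96 and 2.05 in OVX replicates 1, 2 and 3 and 2.10, 2.14 and 1.78 in E2 replicates 1, 2 and 3, from rebuilt counts of 111 to 174. As for *Npy1r*, OVX replicate 1 was the highest library, while the same library was the lowest for *Npy2r*. OVX replicate 1 also had the highest sum of the 8 forebrain excitatory genes, and the part of those cells in these values was not tested.

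The mean of *Npy5r* was 2.21 ± 0.36 (SD, n = 3) without E2 and 2.01 ± 0.19 (SD, n = 3) with E2. The difference of -0.21 (SE 0.25, 95% interval -0.74 to 0.33) had an adjusted p of 0.896 with limma and was 0.0015 without OVX replicate 1. At these counts the interval spans levels from 0.600 to 1.25 times that of OVX females, so a rise as large as that of *Npy2r* lies outside it.

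Whether *Npy2r* differed from the other receptors in its response was asked with the log2 ratio of a pair of receptors in the same library, which does not depend on how libraries are scaled. The log2 ratio of *Npy2r* to *Npy1r* was 0.85, 1.47 and 1.65 in OVX replicates 1, 2 and 3 and 2.02, 2.21 and 2.05 in E2 replicates 1, 2 and 3. That of *Npy2r* to *Npy5r* was 2.91, 3.80 and 3.81 in OVX and 4.30, 4.27 and 4.65 in E2 libraries. Both ratios were higher in each E2 library than in each OVX library.

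The rise of the ratio was 0.77 for *Npy2r* to *Npy1r* and 0.90 for *Npy2r* to *Npy5r*, each with an exact two-sided permutation p of 0.1, the smallest possible, and an adjusted p of 0.15 over the 3 ratios. The ratio of *Npy1r* to *Npy5r* overlapped between groups, with a difference of 0.13 (exact permutation p = 0.6, adjusted p = 0.6). Since this permutation test cannot go below 0.1 with 3 against 3 libraries, it could not have passed the threshold, and it does not settle whether the receptors' responses differed.

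Levels of different genes can be compared only per length, and log2 CPM per kilobase of the longest transcript was used for that. On this scale the mean over the 6 libraries was 4.46 for *Npy*, 4.32 for *Npy2r*, 2.77 for *Npy1r* and 0.90 for *Npy5r*. These are ranks 3145, 3429, 7439 and 11182 of 13881 genes with a length. *Npy2r* lay above *Npy1r*, and *Npy1r* above *Npy5r*, by more than the spread of either in both groups.

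The order of the peptide gene and *Npy2r* turned with treatment. In OVX libraries the level per kilobase was 4.42 ± 0.27 (SD, n = 3) for *Npy* and 3.97 ± 0.17 (SD, n = 3) for *Npy2r*, and the values nearly met in replicate 3 (4.12 and 4.11). In E2 libraries it was 4.50 ± 0.045 (SD, n = 3) for *Npy* and 4.66 ± 0.018 (SD, n = 3) for *Npy2r*, and *Npy2r* was the higher in 3 of 3 libraries. The gap between the pair was not tested, and the short *Npy* transcript makes its level per kilobase depend more on the annotated length than that of the receptors.

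**Figure D2:**
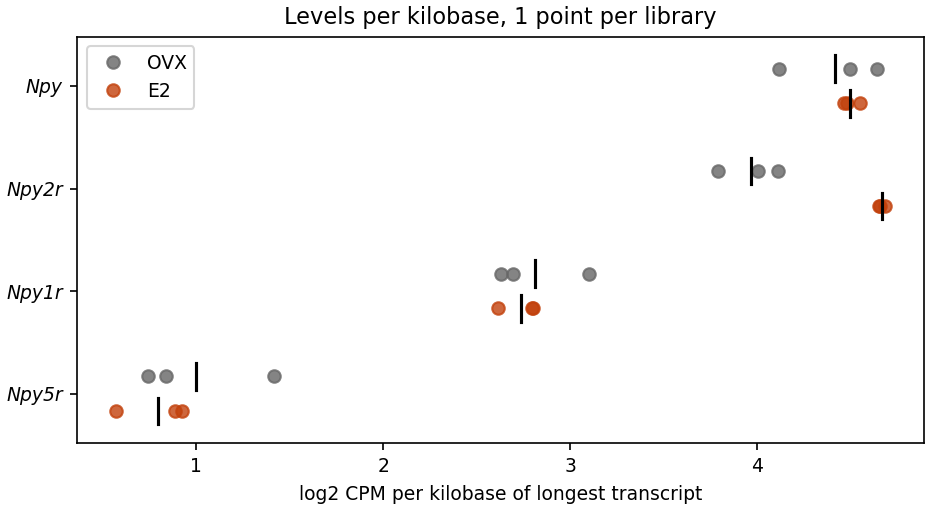
Each point is the log2 CPM per kilobase of longest transcript (horizontal axis) of a gene in a library, grey for OVX and orange for E2, with a black line at each group mean. The order from *Npy2r* to *Npy1r* and *Npy5r* was the same in both groups, with means of 4.66, 2.74 and 0.80 in E2 libraries. On this scale the mean of *Npy2r* lay below that of *Npy* in OVX and above it in E2 libraries. That gap depends on the annotated lengths and was not tested.

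As a share of the summed CPM per kilobase of the 3 receptor genes, *Npy2r* made up 55.1%, 66.3% and 68.4% in OVX replicates 1, 2 and 3 and 74.0%, 75.9% and 75.3% in E2 replicates 1, 2 and 3. *Npy2r* was thus the most abundant of the 3 receptor mRNAs in every library. The share of *Npy1r* had a mean of 28.5% ± 5.1 (SD, n = 3) without E2 and 19.8% ± 1.2 (SD, n = 3) with E2, and that of *Npy5r* of 8.22% ± 2.10 (SD, n = 3) and 5.18% ± 0.72 (SD, n = 3). Shares add up to the whole, so a higher share of *Npy2r* lowers the others without any fall in their own level.

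**Figure D3:**
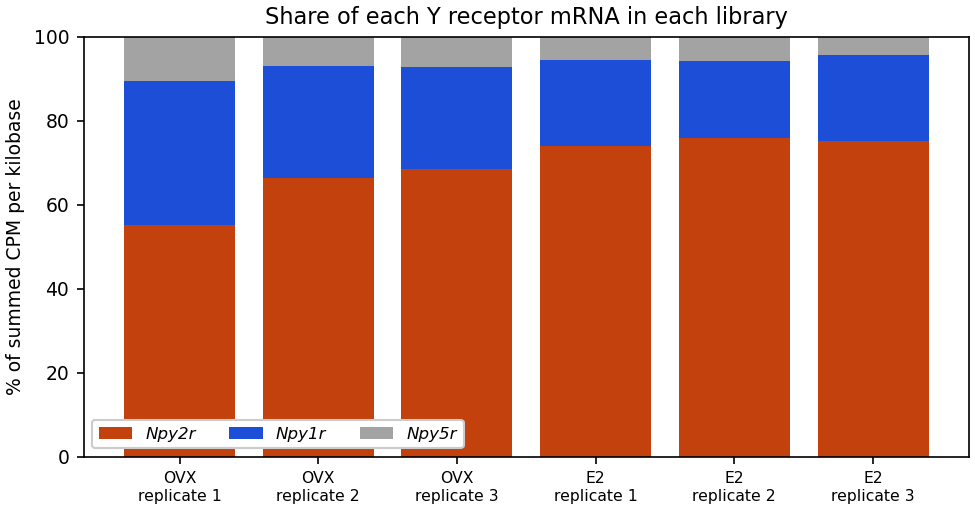
Stacked bars give the percentage of the summed CPM per kilobase held by *Npy2r* (orange), *Npy1r* (blue) and *Npy5r* (grey) in each of the 6 libraries. *Npy2r* holds between 55.1% and 68.4% in OVX and between 74.0% and 75.9% in E2 libraries.

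Other receptors for neuropeptides, most of which couple mainly to Gi/o proteins, give the setting for these levels. Of the 17 looked for, 14 were listed (*Galr2*, *Npffr2* and *Prlhr* were not). Per kilobase, *Npy2r* was second of the 17 receptor genes with a value when the Y receptors were counted in, behind *Oprl1*, the nociceptin receptor, with a log2 level of 4.98. *Sstr2* and *Sstr1*, receptors for somatostatin, followed at 3.87 and 3.77. *Npy1r* was in place 7 and *Npy5r* in place 13.

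Of these 14 other receptors, 0 passed the test, against 0.288% of all genes, and 3 had an unadjusted p under 0.05, against 8.56% of all genes. The median difference of the 14 was 0.05, and that of all genes was 0.0034. *Sstr1* had 4.58 ± 0.10 (SD, n = 3) without E2 and 4.97 ± 0.11 (SD, n = 3) with E2 (difference 0.39, SE 0.10, adjusted p = 0.165 with limma), and the groups did not overlap. For *Sstr2* the difference was -0.33 (SE 0.095, adjusted p = 0.281 by limma), and for *Oprk1*, the kappa opioid receptor, -0.30 (SE 0.14, adjusted p = 0.581 by limma). The groups did not overlap for *Sstr2* and *Oprk1* either, with E2 below. Among the 14, groups did not overlap with E2 above for 1 and with E2 below for 4. The shares over all genes were 6.85% and 6.82%. *Oprl1* and *Sstr3*, those with the highest CPM, had differences of 0.09 and 0.03.

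**Figure D4:**
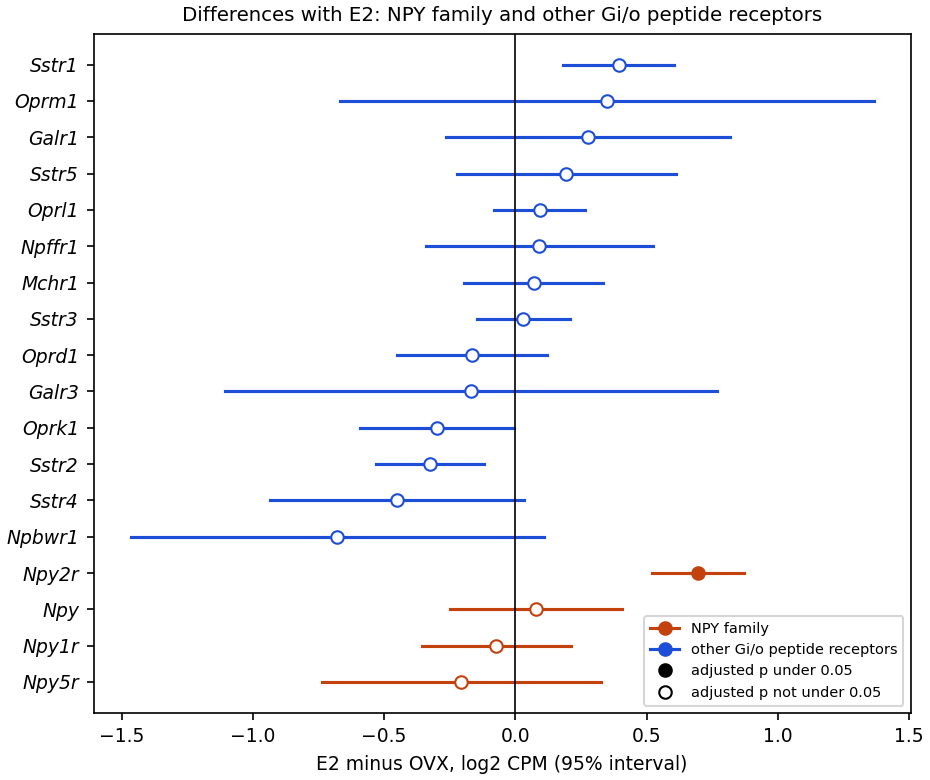
Points give the log2 difference of E2 minus OVX (horizontal axis) with its 95% interval for the NPY family (orange) and 14 other Gi/o-coupled peptide receptors (blue), filled where the adjusted p was under 0.05. *Npy2r*, at 0.70, is the only filled point among these 18 genes.

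Pro-neuropeptide Y is cut by the prohormone convertases *Pcsk1* and *Pcsk2*, trimmed by carboxypeptidase E (*Cpe*) and amidated by *Pam*. Dipeptidyl peptidase 4 (*Dpp4*) removes the first residues and so turns the peptide from Y1 towards Y2 and Y5 receptors. Of 14 genes of processing and breakdown, 12 were listed and *Dpp4* and *Xpnpep2* were not. With limma 0 of the 12 passed the test (0.288% of all genes), 3 had an unadjusted p under 0.05 (8.56% of all genes), and the median difference was 0.01.

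*Cpe* and *Pcsk1n*, a convertase inhibitor, had the highest means of this list, 10.48 and 9.43 log2 CPM, and differences of 0.01 and -0.03. *Pcsk1* had 6.05 ± 0.08 (SD, n = 3) without E2 and 6.26 ± 0.08 (SD, n = 3) with E2 (difference 0.21, SE 0.07, adjusted p = 0.397 with limma). *Pcsk2* stood at 8.59 ± 0.015 (SD, n = 3) without E2 and 8.45 ± 0.056 (SD, n = 3) with it, which is a difference of -0.14 (SE 0.05, adjusted p = 0.454 with limma). The groups did not overlap for either convertase and stood in opposite order. Among the 12 listed genes, groups did not overlap with E2 above for 1 and with E2 below for 3. Over all genes this held for 6.85% and 6.82%. *Fap*, a protease related to *Dpp4*, was near the lower limit of the table at a mean of -0.29 log2 CPM, with a difference of -1.43 (SE 0.57, adjusted p = 0.493 with limma).

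Of the Gi/o proteins, adenylyl cyclases, potassium and calcium channels, arrestins and kinases through which Y receptors are known to act or be silenced, 30 were listed and *Kcnj5* was not, with *Adrbk1* and *Adrbk2* counted under their current symbols *Grk2* and *Grk3*. With limma 0 of the 30 passed the test (0.288% of all genes) and 3 had an unadjusted p under 0.05, a share close to the 8.56% of all genes. Their differences lay between -0.24 and 0.22, with a median of -0.03. *Gnao1* and *Gnb1*, a Gi/o alpha and a beta subunit, had the highest means, 9.56 and 9.17 log2 CPM, with differences of 0.02 and -0.06. The gamma subunit *Gng2* had the smallest p of this list (difference 0.22, SE 0.06, adjusted p = 0.279 with limma), followed by *Kcnj9*, a G protein-gated potassium channel subunit (difference -0.16, SE 0.06, adjusted p = 0.429 with limma). For the cyclase *Adcy1* the difference was -0.24 (SE 0.11, adjusted p = 0.563 with limma).

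In the hypothalamus neuropeptide Y neurons also make agouti-related peptide, and the feeding circuit was looked at for that reason. *Agrp*, *Hcrt* and *Pmch* were not listed, and *Pomc* was low, with a mean of 0.72 log2 CPM. Of the 8 listed genes 0 passed the test with limma (0.288% of all genes), 1 had an unadjusted p under 0.05 (8.56% of all genes), and the median difference was 0.09. *Mc3r*, a melanocortin receptor, had 0.61 ± 0.72 (SD, n = 3) without E2 and 1.56 ± 0.18 (SD, n = 3) with E2 (difference 0.95, SE 0.38, adjusted p = 0.497 with limma). *Mc4r* and the ghrelin receptor *Ghsr* had differences of 0.41 and 0.66, each with overlapping groups. *Cartpt* and *Insr*, the highest of the list with means of 6.44 and 5.68, had differences of 0.14 and 0.05.

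Many *Npy* neurons of the forebrain are GABA interneurons that carry somatostatin (*Sst*) or neuronal nitric oxide synthase (*Nos1*). Of 16 interneuron genes looked for, not all of them particular to *Npy* interneurons, 15 were listed and *Cort* was not. With limma 0 of the 15 passed the test (0.288% of all genes), 2 had an unadjusted p under 0.05 (8.56% of all genes), and the median difference was 0.08. *Nos1* and *Calb2*, a calcium-binding protein, had the highest means, 9.07 and 8.08 log2 CPM, with differences of 0.09 and 0.004. *Sst* had a mean of 6.22, and its difference was -0.09 (SE 0.073, adjusted p = 0.798 with limma). *Tacr1*, the substance P receptor, *Gad2*, which makes GABA, and *Ndnf* had differences of 0.54, 0.31 and 0.23, with adjusted p-values of 0.213, 0.251 and 0.661 with limma. *Npy* itself, at 3.64, lay well below *Sst* in CPM, and per kilobase as well, with rank 3145 against rank 507 for *Sst*.

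Genes whose values over the 6 libraries were most like those of each of the 4 were found by the root mean square difference of log2 CPM after each gene was centred on its own mean, among 12812 other genes with a symbol and a mean of at least 1. For *Npy2r* the nearest were *Tiparp* (0.066), *Pdgfb* (0.079), *Fgfr1* (0.1003), *Gpr12* (0.116) and *Tmem215* (0.122), where the median gene was 0.379 away. Their differences lay between 0.59 for *Pdgfb* and 0.75 for *Gpr12*. That these are close in size to that of *Npy2r* follows from the way the genes were chosen. For *Npy1r* the nearest were *Furin* (0.027) and *Ccdc3* (0.028), for *Npy5r* *Cpxm1* (0.071) and *Vit* (0.078), and for *Npy* *Rpusd4* (0.038), *Zfp654* (0.039) and *Sh2b2* (0.046). With 6 libraries and so many genes, near values arise readily, and the names are given as a description.

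**Figure D5:**
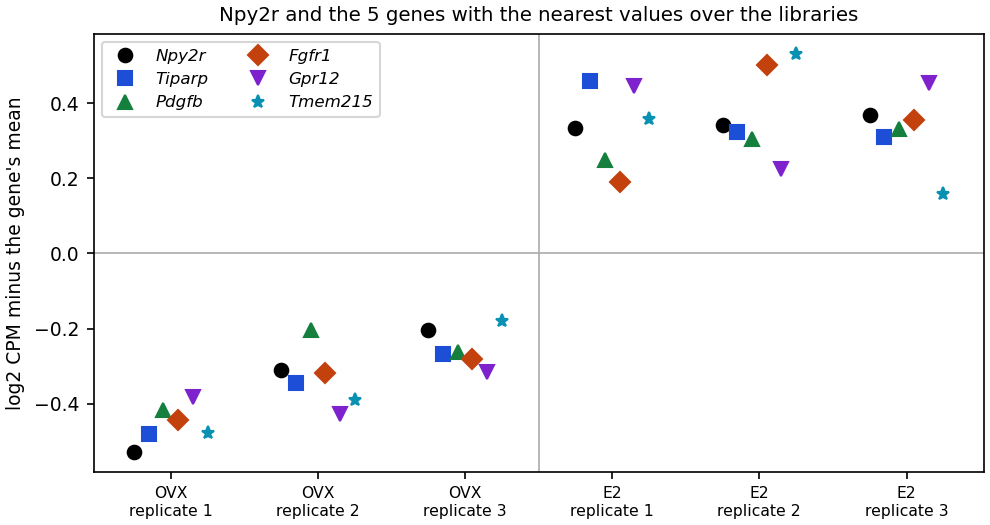
The plot gives, for each of the 6 libraries, the log2 CPM minus the gene's own mean (vertical axis) of *Npy2r* (black circles) and of the 5 genes with the nearest values, set side by side for legibility. All 6 genes lie below their mean in the 3 OVX libraries and above it in the 3 E2 libraries, with *Npy2r* at -0.53 in OVX replicate 1 and 0.37 in E2 replicate 3. The 5 genes were chosen for this likeness.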

How the data were processed

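The deposited values were log2 CPM of 6 libraries, which the authors made by trimming with Trimmomatic 0.38, alignment with STAR 2.6.0a (versions per the submitters' processing notes), RSEM quantification on GRCm38, TMM scaling and voom. The study's methods state a limit to protein-coding genes and a minimum mean CPM in at least 1 group. Libraries were unstranded and poly-A selected. The authors' table of their own comparisons (fold changes, statistics, p-values and group means) was not used.

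E2 and OVX libraries were compared by limma (version 3.58.1, R version 4.3.3). Because the deposited table holds no voom weights, empirical Bayes took a trend of variance on mean in their place. Treatment was the only term. Tests were two-sided, with Benjamini-Hochberg adjustment across the 13886 genes and a threshold of 0.05. Counts were rebuilt by taking each library's lowest value, shared by 2 to 12 genes, as a count of 0 plus the 0.5 of voom, and 100% of them had at most 2 decimals within 0.001. They carry no molecular identifiers. Differences are E2 minus OVX, and the median SE was 0.11. The code was tested on simulated data. Gene positions and lengths came from GENCODE M21 (GRCm38), which held 13881 of the listed genes, and promoter windows from RefSeq.

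The members and the 13 gene lists were chosen with earlier results of these data known. Genes named from a list other than the cell type markers were those past the threshold, the 3 with the smallest p and the 2 with the highest mean, with the neighbours on the chromosome and the genes nearest in profile (5 for *Npy2r*, 3 for the others, of which 1 each for *Npy1r* and *Npy5r* is not reported here). List genes without a value were named as such. *Pomc* and *Sst* fell outside this rule and were chosen after their values were seen. The alternatives were voom weights on rebuilt counts, no trend, array weights, median centring, quantile normalization, 2 filters on low values, pseudocounts of 1 and 0.1, robust empirical Bayes, a replicate block and each library left out.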

Additional observations from a re-analysis of the deposited data

How the results depend on the processing

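The higher level of *Npy2r* kept its direction under all 17 alternatives and passed the threshold under 16 of them. It was lost with neither trend nor weights (difference 0.70, adjusted p = 0.279 with limma), where 0 genes passed and 1017 had an unadjusted p under 0.05, against 40 and 1188 in the main comparison and 46 and 1178 with voom weights. Over the alternatives its difference ran from 0.60 to 0.77 and its adjusted p from 0.000196 to 0.279. With 1 library left out in turn the differences ran from -0.07 to 0.19 for *Npy*, from -0.16 to 0.07 for *Npy1r*, from 0.60 to 0.77 for *Npy2r* and from -0.33 to 0.0015 for *Npy5r*, the difference of the log2 ratio of *Npy1r* to *Npy5r* from -0.0092 to 0.26, and the count of genes past the threshold from 20 without E2 replicate 2 to 66 without E2 replicate 3 (21 without OVX replicate 1 and 26 without E2 replicate 1). The sign of *Npy* turned without OVX replicate 3 (-0.072), those of *Npy1r* (0.074) and *Npy5r* without OVX replicate 1 and that of the ratio of *Npy1r* to *Npy5r* without E2 replicate 3, and the cause was not tested. The other settings turned no sign of these 4 genes, and the 5 gene lists had 0 genes past the threshold in each of the 17. Libraries with the same replicate number did not deviate together (correlations over genes of -0.11, -0.16 and -0.10, with 0 of 3 OVX libraries nearest to the E2 library of their own number). The labels do not say whether they share more than a number. The fit with a replicate block gave 35 genes and an adjusted p of 0.00292 for *Npy2r* with limma, and it changed no call among the 4 genes. At 111 to 174 rebuilt counts *Npy5r* was the least precise of the 4, with an SE of 0.25 against 0.08 for *Npy2r*.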
